A study of Homo sapiens with 6 samples.

Results

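Gene-free LaminB1 regions are stretches of lamina-associated sequence that hold no protein-coding gene. They were taken from 4 lists of called LaminB1 regions as the regions of at least 50 kb on chromosomes 1 to 22 that overlapped no RefSeq hg38 protein-coding gene body by 1 bp or more. In all, 5745 of the 49015 autosomal regions met this rule, and 5806 regions of at least 50 kb that did overlap such a gene were set beside them. LaminB1, a B-type lamin, had been profiled by CUT&RUN, in which an antibody-directed nuclease cuts out the chromatin around its target, in HCT116, an established human colorectal carcinoma cell line. The control group was the TOP2A-mAID line, in which the endogenous type II topoisomerase TOP2A carries an auxin-inducible degron, without auxin; its genotype label reads wildtype. The double loss group carried the same degron with TOP2B -/- and received 500 uM auxin for 8 h, and its genotype label reads TOP2A + TOP2B double knockout. Palbociclib, 2 uM over 28 h, arrested both groups in G1. There were 2 LaminB1 libraries per group, with 1 region list per library. Whether the replicates were separate cultures, and whether each line is 1 clone, is not given in the sources used here, so p-values measure the spread between these libraries, which may be technical. Auxin was given to 1 group, so genotype, line and auxin cannot be told apart, and the lists hold no measure of TOP2A or TOP2B.

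Lamins form the meshwork under the inner nuclear membrane, and the chromatin that touches it lies in large lamina-associated domains. These domains are known for low transcription, few genes and late replication, and in many cell types they include gene deserts, the long intervals without protein-coding genes. Gene deserts often flank developmental regulators and neuronal adhesion genes and can hold long noncoding RNA (lncRNA) genes, pseudogenes and microRNA (miRNA) genes. Type II topoisomerases pass one DNA duplex through another and so relieve supercoils and tangles.

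The regions are without protein-coding genes, but not without genes. Of 17795 autosomal lncRNA genes in RefSeq, 149 lay wholly inside gene-free regions of all 4 lists, as did 8 of 1793 miRNA genes and 164 of 15521 pseudogenes. Promoters of lncRNA genes show what start sites in this sequence look like. The 300 bases around the start of LINC02703 (chr11:115919386-115919685, plus strand), LINC01705 (chr1:222059344-222059643, minus strand) and LINC02397 (chr12:92466429-92466728, plus strand) are printed below from RefSeq, GRCh38.p14, 5′ to 3′. They are 3 of the 5 longest lncRNA genes with an approved symbol that lay inside gene-free regions of all 4 lists, and the table used held no entry for LINC02791 and LINC02207. The promoter of MALAT1 (chr11:65497488-65497787, plus strand), an abundant nuclear lncRNA that no list covered, is printed for contrast. Capitals mark CG dinucleotides.
LINC02703: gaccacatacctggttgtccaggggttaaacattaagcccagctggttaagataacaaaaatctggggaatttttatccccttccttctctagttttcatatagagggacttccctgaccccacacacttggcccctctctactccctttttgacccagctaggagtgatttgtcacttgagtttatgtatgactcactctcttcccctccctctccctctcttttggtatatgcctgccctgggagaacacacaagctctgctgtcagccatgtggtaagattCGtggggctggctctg
LINC01705: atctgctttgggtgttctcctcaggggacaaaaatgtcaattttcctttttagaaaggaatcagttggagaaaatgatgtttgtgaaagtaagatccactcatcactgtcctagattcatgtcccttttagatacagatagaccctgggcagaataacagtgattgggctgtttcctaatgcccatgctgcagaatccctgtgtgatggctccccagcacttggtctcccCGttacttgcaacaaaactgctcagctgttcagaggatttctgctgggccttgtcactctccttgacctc
LINC02397: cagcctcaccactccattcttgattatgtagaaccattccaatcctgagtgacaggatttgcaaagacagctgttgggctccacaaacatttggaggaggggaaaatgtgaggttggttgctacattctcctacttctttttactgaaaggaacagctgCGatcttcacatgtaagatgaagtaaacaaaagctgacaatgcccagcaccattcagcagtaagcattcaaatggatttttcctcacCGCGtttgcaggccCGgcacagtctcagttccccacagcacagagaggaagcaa
MALAT1: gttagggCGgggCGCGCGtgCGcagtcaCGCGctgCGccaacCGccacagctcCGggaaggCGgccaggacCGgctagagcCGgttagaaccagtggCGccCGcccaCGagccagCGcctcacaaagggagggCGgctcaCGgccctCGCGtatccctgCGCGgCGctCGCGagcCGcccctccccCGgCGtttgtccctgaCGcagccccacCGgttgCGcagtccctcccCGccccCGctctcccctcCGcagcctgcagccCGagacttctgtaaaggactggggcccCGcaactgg
The capitals number 1 CG in LINC02703, 1 in LINC01705 and 4 in LINC02397, against 37 in MALAT1. GC content was 48.7%, 45.7% and 46.3%, against 73.7%. The same held over the sets. The 174 lncRNA promoters inside gene-free regions of all 4 lists had a median GC content of 42.7% and a median of 2 CG (quartiles 1 and 3). The 4396 lncRNA promoters that lay in gaps between protein-coding genes but in no region of any list had medians of 48.3% and 4 CG (quartiles 2 and 9), and all 12569 lncRNA promoters had 50% and 5 CG. Protein-coding promoters inside gene-overlapping regions of all 4 lists (276) had 47.3% and 5 CG, and all 21156 protein-coding promoters had 62.7% and 21 CG. The letters TATAAA, searched on both strands, occurred in 31.0% of the 174 promoters, in 16.9% of lncRNA promoters in gaps outside all regions, in 15.04% of all lncRNA promoters and in 11.6% of all 33725 promoters. Protein-coding promoters inside gene-overlapping regions of all 4 lists had them in 16.7%, against 8.53% of those in no region of any list. A higher share inside LaminB1 regions was thus not particular to gene-free ones. A match to TATAAA is a description of letters that hold no G or C, and the part of GC content in these shares was not tested. Not every uncovered broadly expressed lncRNA had a promoter rich in CG: GAS5 and CYTOR had 5 each.

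Of the 8 miRNA genes inside gene-free regions of all 4 lists, 7 had mature sequences in the table used, and MIR1302-4 is named only. The mature sequences below are listed for MIR135A2, MIR4495 and MIR4303, which lie near each other on chromosome 12, and for MIR1299 and MIR147A on chromosome 9. They are shown because no seed is shared among them. The seed, bases 2 to 8, is in capitals.
hsa-miR-135a-2-3p: aUGUAGGGauggaagccaugaa
hsa-miR-4495: aAUGUAAAcaggcuuuuugcu
hsa-miR-4303: uUCUGAGCugaggacag
hsa-miR-1299: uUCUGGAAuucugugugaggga
hsa-miR-147a: gUGUGUGGaaaugcuucugc
Over the 8 mature sequences listed for the 7 genes, which may not be all that these genes give, there were 8 distinct seeds. The seed of miR-135a-2-3p occurred in 2 RefSeq mature miRNAs, that of miR-3681-3p in 3, and each of the other seeds in 1. MiRNA starts were sparse in gene-free regions, at 0.167 and 0.128 per Mb in control 1 and 2 and 0.193 and 0.173 in double loss 1 and 2, against 0.325 per Mb over all gaps. Gene-overlapping regions had 0.291, 0.323, 0.391 and 0.356 per Mb in the same order. The rates in gene-free regions rest on few genes, with 26, 16, 29 and 27 miRNA genes inside them per list.

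The lists held 10770 to 13596 autosomal regions. Gene-free regions held 1938663 and 1694946 LaminB1 reads in control 1 and 2 and 2032984 and 2103825 in double loss 1 and 2. Each list also counts reads of a control library per region. The sample titles give 1 IgG control library per group, and the lists do not name the library they counted. Where both lists of a group had a region of identical edges, its control library count was also identical, in 44 of 44 regions for control and 61 of 61 for double loss. Between groups this was so in 0 to 2 of 33 to 43 regions, so the groups had different control libraries. In gene-free regions that library gave 6.91 and 7.05 reads per kb for control and 8.88 and 8.82 for double loss, and LaminB1 gave 12.5, 13.6, 13.5 and 13.5 reads per kb in the same order. Folds are therefore compared only within a list, and the part of the control library in any difference between groups was not tested.

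About every second long region was gene-free. Control 1 and 2 held 1452 and 1221 gene-free regions, and double loss 1 and 2 held 1509 and 1563. These were 48.7%, 49.2%, 50.5% and 50.4% of the regions of at least 50 kb. Both double loss lists were above both control lists in number and in share, by 199.5 regions and by 1.44 points on average (two-sided exact permutation test, p = 0.333 for each, the smallest that 2 lists against 2 allow). The difference in number leaned on the control lists and on the width limit: it was 84 regions without control 2 and 315 without control 1, and among regions of at least 100 kb the groups overlapped (491 and 387 against 469 and 460). Summed length did not separate the groups: it was 155.6, 125.1, 150.1 and 155.7 Mb in the same order, and the difference of means of 12.6 Mb had p = 0.667 in the same exact permutation test. Without control 2 that difference was -2.64 Mb, and without control 1 it was 27.8 Mb. Gene-free regions made up 26.2%, 22.8%, 24.6% and 25.03% of all covered length.

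Gene-free regions were narrower than gene-overlapping ones in every list. Median widths were 79, 77, 75 and 75 kb in control 1, control 2, double loss 1 and double loss 2, against 97, 91, 85 and 87 kb for regions with a gene. The mean difference within lists was -13.5 kb, negative in 4 of 4 lists (two-sided exact sign-flip test, p = 0.125, the smallest 4 lists allow, and lists of a group share a control library). A wider region has more chances to meet a gene, so width is tied to the rule itself. The rule favours this sign in every list, and the test is no support for a trait of these regions. Widths of at least 200 kb were reached by 136, 97, 103 and 113 gene-free regions, and the widest spanned 1382, 759, 1081 and 1260 kb. Values on both sides of the 50 kb limit were close. Regions of 45 to 50 kb without a gene, 241 to 277 per list, had median log2 folds of 0.55, 0.63, 0.51 and 0.52, and those of 50 to 55 kb, 161 to 222 per list, had 0.54, 0.62, 0.52 and 0.48.

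**Figure D1:**
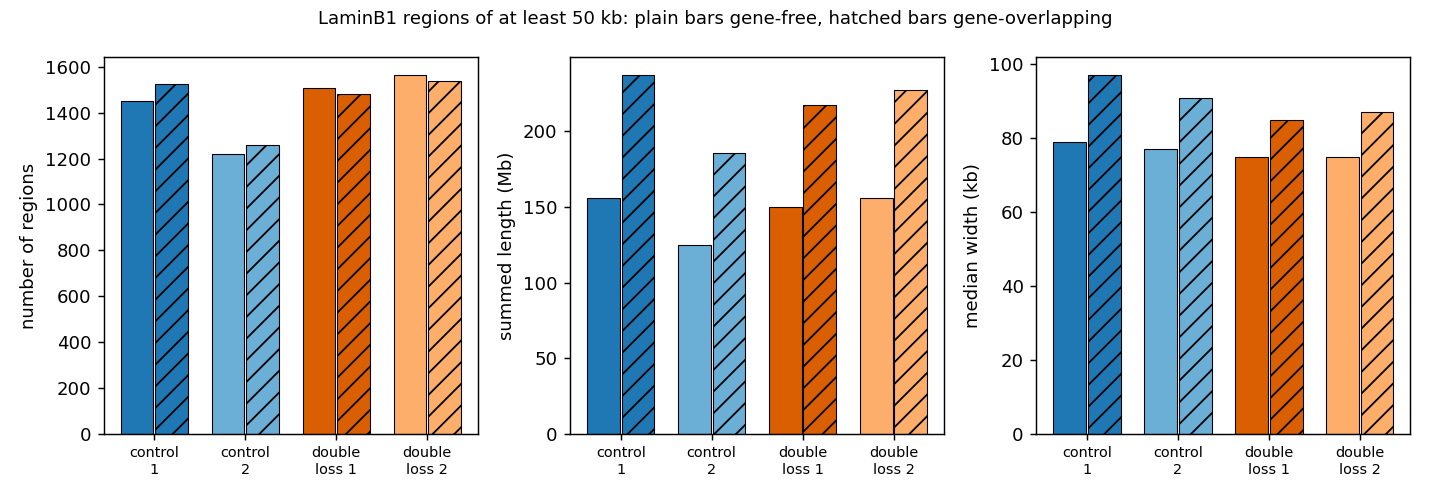
Number of regions, summed length in Mb and median width in kb of gene-free (plain bars) and gene-overlapping (hatched bars) LaminB1 regions of at least 50 kb in each of the 4 lists. The 2 kinds are near equal in number in each list, while gene-overlapping regions are longer in sum and wider at the median.

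LaminB1 enrichment differed little between the 2 kinds. The median of the authors' log2 fold of LaminB1 over control library was 0.59, 0.67, 0.56 and 0.55 in gene-free regions of control 1, control 2, double loss 1 and double loss 2. In gene-overlapping regions it was 0.61, 0.68, 0.57 and 0.57. The mean difference within lists was -0.017 on the log2 scale, negative in 4 of 4 lists (two-sided exact sign-flip test, p = 0.125). Compared within the same chromosome and width class, the differences were -0.00053, -0.0088, -0.0033 and -0.0013, with a mean of -0.0035 (exact sign-flip p = 0.125), and this mean turned to 0.0039 when regions from 30 kb were taken. The quartiles of gene-free regions in control 1 were 0.48 and 0.71, far wider than these differences. Within gene-free regions enrichment went with width (Spearman's rho 0.171 to 0.210 over the regions of a list) and very weakly, in the other direction, with distance from a gene (rho -0.0922 to -0.0668), as a description over regions that share a library.

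**Figure D2:**
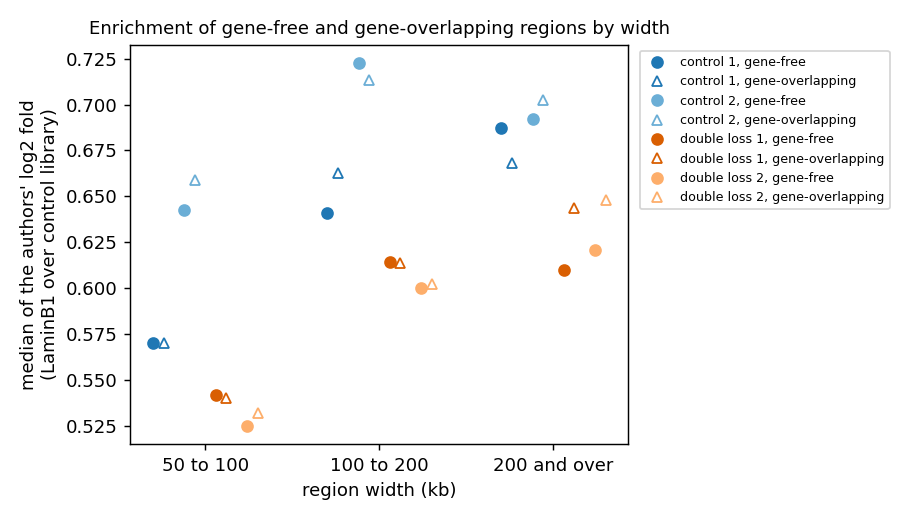
Median of the authors' log2 fold of LaminB1 over control library (vertical axis, not starting at 0) for gene-free (filled circles) and gene-overlapping (open triangles) regions by region width in kb, in each list. Within a list the circle and the triangle of a width class lie close together, and regions of 50 to 100 kb have the lowest medians in every list.

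Gene-free regions lay for the most part in large gaps, where most gap sequence also lies. A gap is here the interval between neighbouring protein-coding gene bodies. The autosomes held 4643 gaps of at least 50 kb with 1504 Mb in all, and gene-free regions fell in 622, 530, 625 and 646 of them in control 1, control 2, double loss 1 and double loss 2. The median region sat in a gap of 874, 858, 890 and 889 kb. Median distance to the nearest protein-coding gene was 136, 143.5, 153 and 148.6 kb. More than 100 kb from any such gene lay 59.2%, 60.3%, 62.6% and 61.7% of the regions, and more than 500 kb away lay 11.2%, 10.3%, 13.3% and 12.1%. Of the 1504 Mb of gap sequence, 687.7 Mb lay in gaps over 1 Mb and 247.9 Mb in gaps of 500 kb to 1 Mb. In gaps of 50 kb to 3 Mb, 159.3 of 1237 Mb lay 500 to 1500 kb from a gene. Whether regions sit deeper in gaps than gap sequence at large was not tested.

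Noncoding genes were common in these regions. A lncRNA gene was overlapped by 59.0%, 59.1%, 57.8% and 56.4% of gene-free regions, against 47.1%, 45.04%, 42.7% and 44.1% of gene-overlapping ones. The share of sequence inside lncRNA gene bodies was 27.8%, 29.8%, 28.5% and 27.5%, against 14.3%, 13.9%, 14.1% and 14.8%. Set against the gaps they lie in, however, gene-free regions were not rich in noncoding genes: lncRNA starts numbered 6.30, 6.43, 5.97 and 5.72 per Mb against 6.80 per Mb over all gaps, and pseudogene starts 3.64, 3.62, 3.68 and 3.65 against 5.495. No RefSeq gene of any kind was overlapped by 28.7%, 28.8%, 31.0% and 31.5% of gene-free regions. The 8 broadly expressed lncRNA genes taken as a check (NEAT1, MALAT1, SNHG1, GAS5, SNHG12, OIP5-AS1, CYTOR and NORAD) were covered to 0% in all 4 lists. The longest approved lncRNA genes inside gene-free regions of all 4 lists were LINC02791 (33.7 kb, between DEPDC1 and LRRC7), LINC02703 (23.7 kb, between the adhesion gene CADM1 and BUD13), LINC02207 (21.8 kb, between RGMA and MCTP2), LINC01705 (17.7 kb, between DUSP10 and HHIPL2) and LINC02397 (17.3 kb, between BTG1 and PLEKHG7).

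Some gaps were covered nearly end to end in all 4 lists. Sequence inside gene-free regions of all 4 lists came to 888 stretches with 44.4 Mb, 15.96% of the 278 Mb in a gene-free region of any list, and 86 stretches reached 100 kb. The longest was 391 kb, chr10:105384001-105775000 (hg38), in the intergenic interval between SORCS3 and SORCS1, which encode sorting receptors of the sortilin family. That gap of 1308 kb was covered to 98.7%, 99.1%, 99.0% and 98.9% in control 1, control 2, double loss 1 and double loss 2, and holds 10 lncRNA genes, LINC02627 and LINC02624 among them. The region over the stretch had log2 folds of 0.47, 0.49, 0.42 and 0.44, with 5959, 6235, 6508 and 6640 LaminB1 reads. In each list this fold was below the median of gene-free regions despite the region's length. The control library gave 3558, 3563, 4649 and 4652 reads there, over 392, 393, 392 and 392 kb. Per kb this was more than over all gene-free regions of the list (6.91, 7.05, 8.88 and 8.82). The part of this density in the fold and in the length was not tested. On the other side of SORCS1, towards the aminopeptidase gene XPNPEP1, the next stretch (chr10:109497001-109811000, 314 kb) lay in a 2684 kb gap covered to 96.5%, 95.7%, 98.4% and 97.1%.

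The gap between PLXNA2, a semaphorin receptor, and the calcium-dependent kinase gene CAMK1G was nearly fully covered and had high folds. Its stretch chr1:208269001-208519000 spans 250 kb, the gap of 1339 kb was covered to 98.8%, 96.3%, 96.4% and 96.1%, and the region's log2 folds of 0.90, 0.95, 0.76 and 0.72 ranked 27, 25, 120 and 177 among the gene-free regions of the 4 lists. The gap between KCTD16, an auxiliary subunit gene of GABA-B receptors, and PRELID2 (743.3 kb) was likewise covered to 94.2%, 96.2%, 97.3% and 98.8%, with log2 folds of 0.86, 0.91, 0.79 and 0.78 over its 165 kb stretch, and holds no lncRNA gene. On chromosome 8, the 2474 kb between KHDRBS3, an RNA-binding protein gene, and FAM135B were covered to 97.9%, 97.1%, 98.3% and 98.5%. The region over the 239 kb stretch in that gap had log2 folds of 0.36, 0.35, 0.31 and 0.33. Its control library reads, 2119, 2283, 3697 and 3715 over 243, 260, 317 and 319 kb, were denser than over all gene-free regions. In the PLXNA2 and KCTD16 regions that library was less dense than over all gene-free regions. Between CSMD3 and the transcriptional repressor gene TRPS1 coverage was 88.9%, 85.3%, 96.9% and 94.1%, both double loss lists above both control lists. The gap from the hyaluronan synthase gene HAS2 to ZHX2 was also higher in both double loss lists, at 60.5% and 75.7% against 80.6% and 76.9%. The gap from LMO7 to KCTD12 on chromosome 13 (78.4%, 84.1%, 80.7% and 86.4%) overlapped between groups, and that from OXSM to LRRC3B on chromosome 3 (88.5%, 77.6%, 92.5% and 88.6%) was separated by 0.148 points.

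Size alone did not bring coverage. The largest gaps with a gene-free region in all 4 lists span centromeres or their flanks or have edges that are in doubt. Between KCNJ18 and WSB1 on chromosome 17 (5590 kb) coverage was 3.88%, 3.71%, 4.67% and 6.55%, and between ZNF337 and LOC124904970 on chromosome 20 (5117 kb) it was 34.6%, 33.1%, 29.1% and 29.6%. The gap before the olfactory receptor gene OR11H1 on chromosome 22 had 1.76%, 1.2%, 4.77% and 3.95%, and its left edge rests on a gene, GSTT1, whose listed position is in doubt.

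Genes that border such gaps were counted by list. Of all 19126 autosomal protein-coding genes, 605 (3.16%) border a gap with a gene-free region in all 4 lists. Of developmental transcription factor genes, 22 of 61 (36.1%) did. Most of these genes border large gaps anyway: among genes bordering a gap of at least 500 kb, the shares were 22 of 41 (53.7%) for this list and 445 of 1170 (38.03%) for all genes. Synaptic adhesion genes gave 8 of 28 (28.6%), but 5 of 19 (26.3%) next to gaps of at least 500 kb. Type II cadherins gave 2 of 12, non-clustered protocadherins 0 of 10, ribosomal protein genes 0 of 86 and olfactory receptor genes 3 of 391. Next to gaps of at least 500 kb these lists gave 1 of 10, 0 of 7, 0 of 5 and 1 of 7. Only 25 of the 86 ribosomal protein genes and 115 of the 391 olfactory receptor genes border any gap of at least 50 kb.

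Among the developmental regulators, the 1941 kb gap between the potassium channel gene KCNJ2 and SOX9, a regulator of cartilage and intestinal stem cell fate, held the longest shared stretch (chr17:70819001-71057000, 238 kb). The region over that stretch had low log2 folds of 0.28, 0.34, 0.30 and 0.25 in control 1, control 2, double loss 1 and double loss 2. They ranked 1339, 1099, 1405 and 1489 among the 1452, 1221, 1509 and 1563 gene-free regions of these lists. The control library gave 2665, 2623, 3053 and 4987 reads in this region, over 295, 292, 247 and 405 kb. This was denser than over all gene-free regions, and its part in the folds was not tested. The gap was covered to 57.8% and 52.5% in the control lists, against 80.7% and 76.6% in the double loss lists, with the groups 18.8 points apart at their nearest, and holds the lncRNA genes CASC17, ROCR, LINC01152, SOX9-AS1 and LINC02097. Beside ZEB2, a repressor of epithelial genes, the 3324 kb gap to ACVR2A had the other order, 76.9% and 71.2% in the control lists, against 40.4% and 39.4% in the double loss lists. Beside LMO4, a LIM-only cofactor, the gap to PKN2 was at 89.0%, 85.9%, 87.8% and 89.4%, and the groups overlapped. For synaptic adhesion genes, the gap beside CNTNAP4 stood at 50.9% and 38.6% in the control lists, against 72.8% and 74.9% in the double loss lists, that beside CNTNAP2 at 32.7%, 28.1%, 42.6% and 40.5%, also without overlap, and that beside LSAMP overlapped (47.0%, 37.97%, 43.7% and 46.2%). The cadherin gaps beside CDH20 (74.2%, 62.2%, 66.7% and 65.5%) and the olfactory receptor gaps beside OR9Q1 (78.5%, 65.8%, 87.0% and 61.2%) and OR13F1 (83.9%, 77.5%, 74.8% and 88.7%) overlapped between groups, while that beside CDH11 was lower in both double loss lists (56.1%, 54.6%, 46.7% and 53.3%).

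Region edges moved between replicates more than covered sequence did. At 50% reciprocal overlap, 35.9% to 44.7% of the gene-free regions of a list matched 1 in the other list of its group, and 30.4% to 39.0% matched 1 in a list of the other group. For gene-overlapping regions the shares were 41.98% to 50.9% and 35.4% to 45.04%. By sequence, 83.8% to 92.3% of gene-free region length lay in some region of the other list of the group, and 75.6% to 85.9% in a list of the other group. What a gene-free region became in another list was most often gene-free again (54.3% to 70.8% within a group, 47.4% to 62.3% between groups) or shorter than 50 kb (16.9% to 40.1% and 23.9% to 41.3%). It was not called at all in 0.655% to 1.73% of cases within a group and in 2.79% to 7.04% between groups. Of the 84.8 Mb in gene-free regions of both control lists, 4.18 Mb (4.93%) had no region of any width in either double loss list. Of the 93.6 Mb in gene-free regions of both double loss lists, 7.51 Mb (8.02%) had none in either control list. For gene-overlapping sequence these shares were 4.63% and 3.60%.

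The difference between groups was larger farther from genes. For this comparison all regions were used, of any width, and the share of sequence inside them was taken by distance from the nearest protein-coding gene in gaps of 50 kb to 3 Mb. Within 10 kb of a gene the shares were 16.3% and 14.8% in the control lists, against 15.5% and 15.8% in the double loss lists, which overlapped. From 50 to 100 kb they were 30.3%, 28.1%, 29.4% and 30.2%, again overlapping. From 200 to 500 kb they were 36.7% and 34.0% against 38.8% and 40.1%. From 500 to 1500 kb they were 21.5% and 19.8% against 26.1% and 26.5%, means of 20.6% and 26.3%. In all lists coverage was highest 100 to 500 kb from a gene and lower beyond.

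Far minus near, 500 to 1500 kb against under 10 kb, was 5.18 and 4.92 points in the control lists, against 10.6 and 10.7 in the double loss lists. The groups did not overlap, and the difference was 5.63 points (two-sided exact permutation test, p = 0.333, the smallest this design allows). Lists of a group share a control library, so the spread within a group leaves out the variation of that library. These distance classes were also chosen after seeing the data. The group difference was 5.504 to 5.759 points with any 1 list left out and 3.40 points in the upper 50% of regions by log2 fold. With regions of at least 50 kb only it was 3.64 points (1.91 and 1.18 against 5.38 and 4.99). The level of far minus near depended on what counts as a gene and a gap. With gaps over 3 Mb kept, it was 0.482 and 0.453 points for control against 5.12 and 5.05 for double loss. With lncRNA genes counted as genes and the far class taken from 200 kb, it was below 0 in all 4 lists, at -4.05 and -3.98 against -0.176 and -1.02, a difference of 3.42 points. In the far class, 19 of 21 chromosomes had both double loss lists above both control lists, against 9 of 22 in the class under 10 kb. Chromosome 20 went the other way, from a mean of 75.4% to 24.8%, and chromosome 22 was at 0. Chromosome 19 has no such sequence. By difference of means, the far class was highest above control on chromosomes 8 (64.9% and 60.5% to 76.7% and 76.7%), 17 (67.4% and 57.0% to 73.8% and 77.4%) and 15 (31.2% and 27.8% to 42.4% and 41.8%). Without chromosome 20, the ratio of double loss to control means was larger in each farther class of distance, from 1.03 under 10 kb through 1.04, 1.05, 1.09 and 1.15 to 1.31.

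**Figure D3:**
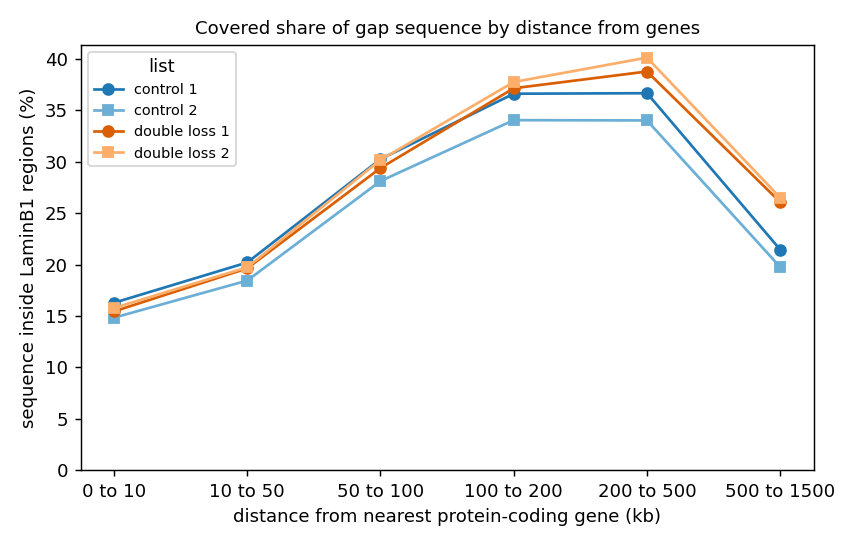
Percent of gap sequence inside LaminB1 regions of any width (vertical axis) by distance from the nearest protein-coding gene in kb, in gaps of 50 kb to 3 Mb, 1 line per list. The 4 lines run together up to 100 kb, and from 500 to 1500 kb the double loss lists (26.1% and 26.5%) lie above the control lists (21.5% and 19.8%).

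**Figure D4:**
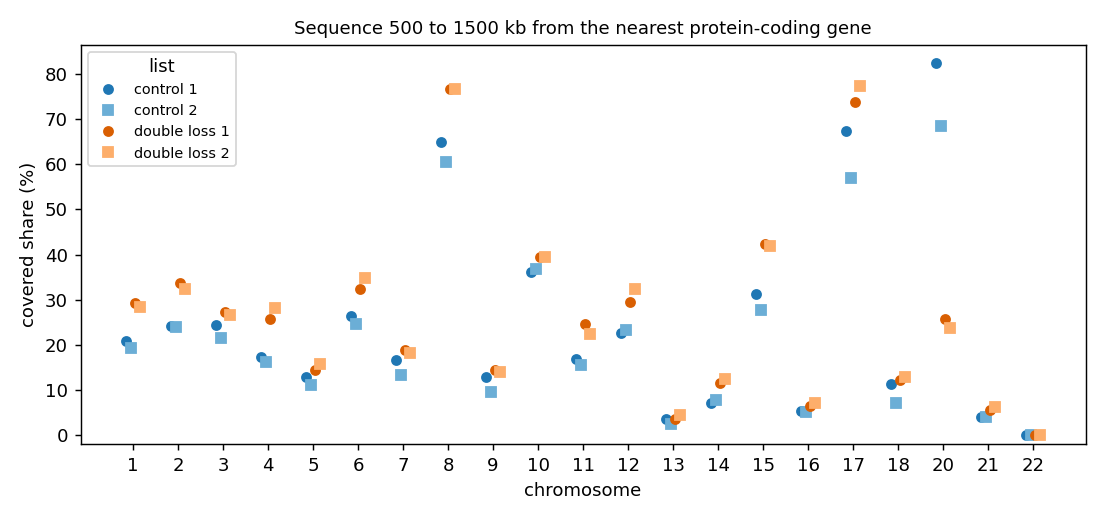
Percent of sequence 500 to 1500 kb from the nearest protein-coding gene that lay inside LaminB1 regions, by chromosome, 1 point per list. Both double loss points lie above both control points on 19 of 21 chromosomes, and chromosome 20 shows the reverse order.

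Gene-free regions whose distance was 500 to 1500 kb had lower folds in every list than those at 200 to 500 kb: medians were 0.52, 0.58, 0.52 and 0.51, against 0.61, 0.69, 0.56 and 0.56. Their control library density was higher, at 7.47, 7.78, 9.40 and 9.25 reads per kb against 6.85, 6.87, 8.75 and 8.70. The ratio of that density between groups was 1.22 in the far class and 1.21 under 10 kb, and lay between 1.21 and 1.28 in all classes. Distance from genes and gap size go together, and the difference between groups was likewise larger in gaps over 1 Mb than in small ones. Gaps of 50 to 200 kb were covered to 16%, 14.7%, 15.3% and 15.3%, those of 500 kb to 1 Mb to 40.7%, 37.6%, 41.0% and 42.4%, those of 1 to 3 Mb to 28.6%, 26.3%, 31.8% and 32.4%, and those over 3 Mb to 5.76%, 4.95%, 7.23% and 7.35%. The gaps over 3 Mb include the 3 largest named above, and how much of their sequence could be called was not tested. All gaps of at least 50 kb together had 24.1%, 22.2%, 25% and 25.5% (difference 2.13 points, exact permutation p = 0.333), and the gene blocks between them 16.9%, 15.7%, 17.1% and 17.4%. The difference over all gaps was 1.19 points without control 2 and 3.08 without control 1, and with regions of at least 50 kb only the groups overlapped (15.75% and 12.4% against 14.9% and 15.6%).

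Single gaps were compared in 1 limma fit over 3339 gaps and gene blocks with at least 5% covered in some list. None passed an adjusted p of 0.05 in either direction (background 0% of 3339, lowest adjusted p 0.0560 by limma), while 476 were higher and 271 lower at an unadjusted p under 0.05. This count rests on each library: leaving out control 1 gave 27 higher and 137 lower by limma, control 2 11 and 140, double loss 1 265 and 44, and double loss 2 258 and 34. By order alone, both double loss lists lay above both control lists in 30.4% of the 3339 and below both in 18.9%. Among the 1959 gaps the shares were 29.7% and 18.9%. Large gaps stood higher: 138 of 234 gaps of at least 1 Mb (59.0%) were above in both double loss lists and 34 (14.5%) below, against 47% and 26% of the 100 gene blocks of that size. Size itself narrows the error of a share, and the difference between gaps and blocks was not tested. Of the 918 gaps with a gene-free region in any list, 338 (36.8%) were above and 210 (22.9%) below, a description, since these gaps were taken for being covered in these lists.

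The 6 gaps per direction with the widest distance between groups had those groups at least 52.95 points apart. None passed the limma threshold (adjusted p 0.0573 to 0.152), and they were picked for this difference, so their values are a description. Upward, the 1281 kb gap between ZIC1, a cerebellar zinc finger factor, and the angiotensin receptor gene AGTR1 (chr3:147416720-148697902) stood at 4.84% and 2.50% in the control lists, against 79.5% and 74.6% in the double loss lists, with no gene-free region in either control list but 10 in double loss 1 and 6 in double loss 2. The neighbouring gap after PLSCR5, a scramblase family gene, went from 2.33% and 1.32% to 67.1% and 71.8%. Between TRIB1, a pseudokinase gene, and LRATD2 on chromosome 8 the shares were 1.44% and 0% against 71.0% and 73.9%, at low folds of 0.28 and 0.23. Smaller gaps of this kind lay between TMEM117 and NELL2 (0% in both control lists, 58.5% and 85.1%), between the cytochrome P450 gene CYP2C8 and ACSM6 (2.81%, 14.8%, 70.2% and 72.6%) and between the collagen prolyl hydroxylase gene P3H2 and the kidney claudin gene CLDN16 (10.3%, 21.0%, 74.0% and 79.2%). Regions with a gene count in these shares. Gene-free regions numbered 0, 0, 4 and 5 in the PLSCR5 gap and 0, 0, 3 and 3 in the TRIB1 gap. The TMEM117 gap had 0, 0, 1 and 0, the CYP2C8 gap 0, 0, 0 and 1, and the P3H2 gap 0, 0, 1 and 1.

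Downward, the gap between ZC3H11B and the manganese transporter gene SLC30A10 (chr1:219613106-219910444) was covered to 73.8% and 62.9% in the control lists and to 0% in both double loss lists, and the adjacent gap from LYPLAL1 to ZC3H11B to 84.0% and 69.2% against 0%. The 939.7 kb gap between TNP1, a nuclear protein gene of spermatids, and the tensin gene TNS1 (chr2:216860065-217799790) went from 79.6% and 80.7% to 11.6% and 19.5%, and holds the lncRNA gene DIRC3. The other 3 lay on chromosome 20: LOC124904962 to the somatostatin receptor gene SSTR4 (98.6%, 93.7%, 19.4% and 18.4%), TMX4 to PLCB1 (82.0%, 90.0%, 26.7% and 0%) and ZFP64 to TSHZ2 (91.1%, 91.8%, 37.7% and 37.4%). Their control regions had low median folds, between 0.15 and 0.31. Shares count regions of any width, gene-overlapping ones included, so they are not all losses of gene-free regions. In list order, gene-free regions numbered 0, 2, 0 and 0 in the SSTR4 gap and 1, 0, 0 and 0 in the TMX4 gap. The TSHZ2 gap had 0, 2, 2 and 0, and the LYPLAL1 gap 0, 1, 0 and 0. The SLC30A10 gap had 1, 1, 0 and 0, and the TNS1 gap 3, 5, 0 and 0. With only the upper 50% of regions by log2 fold, the differences of the SSTR4 and TSHZ2 gaps changed sign, to 5.03 and 3.78 points, and those of the TMX4 and TRIB1 gaps were 0. The CYP2C8 gap then overlapped between groups (2.81% and 14.8% against 34.9% and 4.41%), and with regions of at least 50 kb only it was covered in double loss 2 to 72.6% but in double loss 1 to 0%. With regions of at least 50 kb only, the difference of the SLC30A10 gap was -27.4 points, that of the PLSCR5 gap 45.1 and that of the TSHZ2 gap -84.7.

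**Figure D5:**
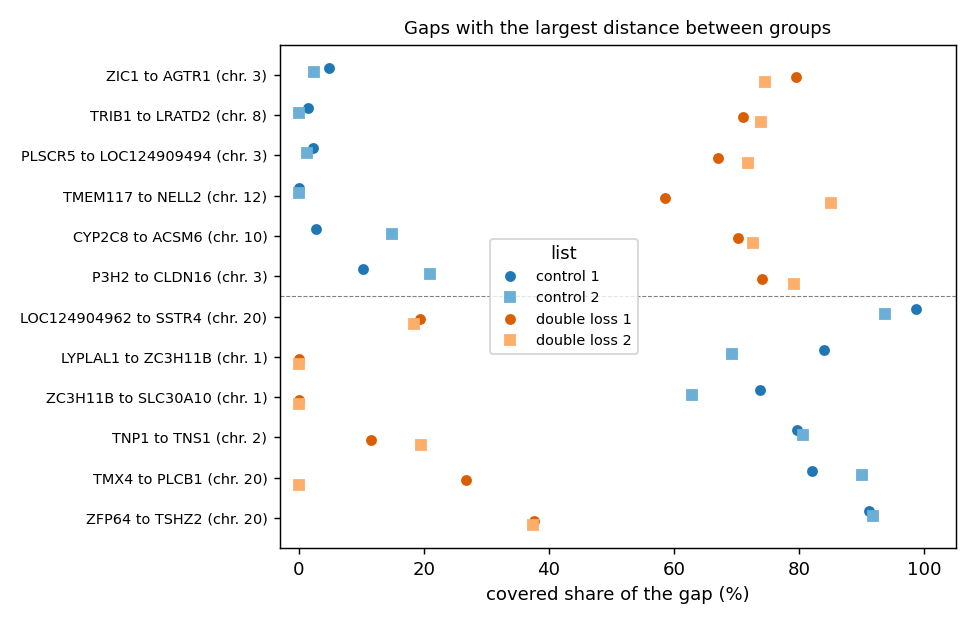
Percent of each gap inside LaminB1 regions of any width, with or without a gene (horizontal axis), in the 4 lists. Shown are the 6 gaps per direction with the widest distance between groups, named by their flanking genes. Above the dashed line the double loss points lie at 58.5% or more, and below it at 37.7% or less.

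Gene-free length by chromosome followed both directions. Both double loss lists were above both control lists on 10 chromosomes, below both on 2 and overlapping on 10. The 10 above include chromosomes 19, 21 and 22, which held few gene-free regions. In list order these numbered 2, 2, 2 and 4 on chromosome 19, 2, 3, 4 and 4 on 21, and 2, 1, 7 and 6 on 22. Chromosome 4 had 12.3 and 8.58 Mb in the control lists, against 15.7 and 14.8 Mb in the double loss lists. Chromosome 3 had 14.3 and 11.8 against 16.9 and 16.3 Mb, chromosome 6 had 9.91 and 6.53 against 10.5 and 12.3 Mb, and chromosome 17 had 1.81 and 1.60 against 3.56 and 4.09 Mb. Chromosome 20 had 8.20 and 8.08 Mb in the control lists against 1.78 and 2.22 Mb, and chromosome 13 was at 4.85 and 3.51 against 2.97 and 3.32 Mb.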

How the data were processed

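Per the submitters' processing notes, Bowtie2 2.3.4.3, Picard and the hg38 build were used on the CUT&RUN reads. Which caller made the regions is not given in the sources used here. Lists were called per library, and their edges lie on a 1 kb grid. Reads per region, of LaminB1 and of a control library, were deposited as counts, with a p-value, an adjusted p-value, a score and a log2 fold, per the file headers. Counts, log2 fold and widths were used here, and score and p-values only to check the files. Files were matched to samples by genotype and replicate number in their names. The number of per-sample columns left unused is 0.

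Gene bodies came from a RefSeq table (GRCh38.p14, which shares its chromosome coordinates with hg38). Some genes there carry positions that may be on other scaffolds, which decided the class of 1, 0, 3 and 1 long regions. Coordinates are printed from 1. GC content of regions was not analysed here.

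Covered shares were compared with limma 3.58.1 in R 4.3.3 (arcsine square root, trended variance, Benjamini-Hochberg). On simulated shares with built-in changes the same fit made no adjusted call either, so its count of 0 does not show that gaps did not differ. The rest used Python 3.11.15 with scipy 1.17.1, pandas 2.3.3 and numpy 2.4.6. Gaps were named by rank: the 10 longest shared stretches (1 per gap), the 3 largest gaps, and the 6 per direction with the widest distance between groups; for genes, the 5 longest lncRNA genes and 3 members per list. Members, lists and tests were chosen with earlier results of these data known. The distance classes, the 3 Mb bound and the promoter comparison were chosen after seeing the data. Alternatives changed width, gene set, gene edges, merging, fold, chromosomes, filters and replicates.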

Additional observations from a re-analysis of the deposited data

How the results depend on the processing

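The limma counts were unstable, and the cause was not tested. From 0 higher and 0 lower gaps and gene blocks, they went to 76 and 43 with features of at least 100 kb, to 16 and 23 with quantile-normalized shares and to 4 and 10 when only the upper 50% by log2 fold were kept. With 1 list left out, where the lone list is assumed to vary like the rest, they ran from 11 to 265 higher and from 34 to 140 lower: leaving out control 1 gave 27 and 137, control 2 gave 11 and 140, double loss 1 gave 265 and 44, and double loss 2 gave 258 and 34. With a replicate block the counts were 0 and 0 (359 and 230 at an unadjusted p under 0.05), and with the numbers crossed 0 and 0. Over features, the deviations of same-numbered lists from their group means had a correlation of -0.00213. A shift common to all features leaves this value unchanged, so it cannot show whether same-numbered libraries were prepared together. The summed length of gene-free regions turned to -2.64 Mb without control 2, and its range with 1 list left out was -2.64 to 27.8 Mb. The fold difference matched for width and chromosome turned to 0.011 with lncRNA genes added to the gene set, to 0.0010 with regions at most 5 kb apart merged and to 0.0039 with regions from 30 kb. The excess of matched regions within over between groups, 6.38 points at 50% reciprocal overlap, was 2.41 at 80%. In the same upper 50%, the difference for the gap LOC124904962 to SSTR4 turned to 5.03 points and for ZFP64 to TSHZ2 to 3.78, and those for TMX4 to PLCB1 and TRIB1 to LRATD2 were 0. Of the other values, 112 for main results and 68 for single gaps kept their direction or, for some limma counts, stayed at 0. Some of these values moved by over 1.5 times. The difference in region number was 25.5 at 100 kb and over, 554 at 30 kb and over, 111.5 with lncRNA genes added and 123 in the upper 50%, and 84 to 315 with 1 list left out. That in length was 1.41 Mb at 100 kb and over, 25.7 Mb at 30 kb and over and 7.88 Mb in the upper 50%. The covered share of gaps differed by 1.17 points with regions of at least 50 kb only, 1.08 in the upper 50% and 1.19 to 3.08 with 1 list left out. The unmatched fold difference was -0.0072 at 100 kb and over, where control 2 was above 0 (0.0057), and -0.0082 at 30 kb and over. The width difference ran from -6.75 kb at 30 kb and over to -30.1 kb at 100 kb and over. Far minus near was chosen after seeing the data, and its group difference ran from 3.40 to 5.80 points over its alternatives. With 2 lists a group, no exact test can pass 0.05. Region lists give no depth outside regions, so an uncovered gap is one where no region was called.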
